A study of Mus musculus with 42 samples.

Results

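The quantity described here is the difference between genotypes in the Ki67 difference at 12 months of age, that is, how far the gap between Ki67+ and Ki67- microglia in APP/PS1 mice departed from the same gap in wild-type (WT) mice. It was computed for each gene as APP/PS1 Ki67+ minus APP/PS1 Ki67-, less WT Ki67+ minus WT Ki67-, and is called the interaction. It rests on 15 of the 42 libraries of the series: 4 of WT Ki67+, 3 of WT Ki67-, 4 of APP/PS1 Ki67+ and 4 of APP/PS1 Ki67-. A gene entered the test if its mean was at least 7 in any of these 4 groups, on the log2-like scale of the deposited values, which 14006 of 19151 genes met. The interaction was called in 1202 of those 14006 genes.

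The mice were male, on a C57BL/6 background, and 4, 6 or 12 months old; APP/PS1 animals carry mutant transgenes of familial Alzheimer's disease, which in this line are driven by the mouse prion protein promoter, and form amyloid plaques, and the WT animals were littermates. Microglia were fixed, permeabilised and stained for CD11b, CD45 and the nuclear antigen Ki67, so every group shares fixation, freezing and the same gate. Each library was made from 400 sorted cells per the labels, where the study's results give up to 400. Nothing in the labels ties a library to an animal, and p-values then measure only the spread between these libraries, which may be technical. In such bulk libraries, fewer cells of a type and less RNA per cell cannot be told apart.

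Microglia are the resident macrophages of the brain, and they renew themselves by local division. Ki67 is a nuclear protein present while a cell is in the cell cycle and lost when it leaves it. Around amyloid plaques microglia take on a state in which Apoe, Lpl, Cst7, Itgax and Axl rise, among other genes. The test here asks for which genes the distance between cycling and non-cycling microglia depends on genotype.

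Before the results, 3 features of the libraries need to be stated. First, the WT Ki67- libraries at 12 months were nearly the same as each other: the median SD over genes between the 3 was 0.0321, against 0.186 in WT Ki67+, 0.263 in APP/PS1 Ki67+ and 0.381 in APP/PS1 Ki67-. The median gap between pairs of these 3 libraries was 0.0247 to 0.0576, against 0.108 to 0.431 over the pairs of the other 3 groups at this age, and a pair of WT Ki67- libraries at 4 months was as close (0.0221). Whether they are separate samples cannot be read from values without counts, so the counts and the named calls at 12 months were computed with the 3 as 3 libraries and again with their mean counted as 1 library, an alternative chosen after the data were seen. Second, Mki67, the gene of the protein used for the sort, went against the label in WT mice: it was 8.81, 8.84 and 8.80 in the libraries labelled WT Ki67- and 7.82, 7.76, 7.69 and 7.63 in those labelled WT Ki67+. In APP/PS1 mice it was 7.49, 8.13, 6.96 and 8.49 in Ki67- and 8.41, 8.07, 9.03 and 8.85 in Ki67+ libraries, overlapping between them. Its interaction was 1.92 ± 0.57 (SE; limma adjusted p = 0.0359). That call was lost on leaving out any of the 3 WT Ki67- libraries, APP/PS1 Ki67+ replicate 3 or 4 or APP/PS1 Ki67- replicate 3 (adjusted p up to 0.0653), and with WT Ki67- counted as 1 library (0.206). Last, the astrocyte markers moved with the Ki67 sort in both genotypes: 17 of 18 tested were higher in WT Ki67+ (27% of all tested genes) and 18 of 18 in APP/PS1 Ki67+ libraries (11.3%), and their mean level was 8.56 in WT Ki67-, 11.37 in WT Ki67+, 7.76 in APP/PS1 Ki67- and 10.64 in APP/PS1 Ki67+. Counting the WT Ki67- libraries as 1, 16 of 18 were higher in WT Ki67+. The astrocyte list's interactions went both ways, 9 of 18 negative with a median of -0.01. Of 19 neuronal markers, 10 were higher in WT Ki67+ (52.6%) and 4 lower, and 8 higher (42.1%) and 0 lower in APP/PS1 Ki67+. Of 15 endothelial and mural markers, 8 were higher (53.3%) and 2 lower in WT Ki67+, and 5 higher (33.3%) and 1 lower in APP/PS1 Ki67+. In WT the oligodendrocyte list had 3 higher and 7 lower of 16. These counts hold WT Ki67- as 3 libraries, and the part of such RNA in the results was not tested. Microglial markers were high in all 4 groups (homeostatic list mean 12.38 to 12.59).

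At 12 months the Ki67 difference depended on genotype in 1202 genes, 8.58% of those tested (limma, FDR 0.05), and at an unadjusted p under 0.05 in 3514. It was positive in 532 genes (3.80% of those tested) and negative in 670 (4.78%). The smallest called interaction was 0.728 in size, 1156 were at least 1 and 205 at least 2. The last gene called had an adjusted p of 0.0494 and the first one not called 0.0501. The median interaction over all tested genes was -0.03, and aligning library medians moved it to 0.06 and the split to 784 positive and 642 negative. With WT Ki67- counted as 1 library 49 genes were called, 16 positive and 33 negative, all of them among the 1202 (4.08%), and leaving out any of its 3 libraries left 708, 708 or 717 calls.

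The called genes were mostly ones in which Ki67+ and Ki67- microglia differed in WT mice and differed less in APP/PS1 mice. The Ki67 difference was larger in WT than in APP/PS1 in 1118 of the 1202 (93.0%), against 70.7% of all tested genes, and in 49 of the 49 called with WT Ki67- counted as 1 library. The median size of the Ki67 difference over the called genes was 1.68 in WT and 0.402 in APP/PS1 mice, against 0.702 and 0.408 over all tested genes. Of the 1202, the WT Ki67 difference was itself called in 1128 (47.9% of all tested genes) and the APP/PS1 one in 241 (19.1%). The genotype difference was called in 775 within Ki67- cells (17.6% of all tested) and in 328 within Ki67+ cells (10.4%). These counts were 955, 242, 170 and 328 in the order given with WT Ki67- counted as 1 library. These 4 differences share their libraries with the interaction and only describe it.

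**Figure D1:**
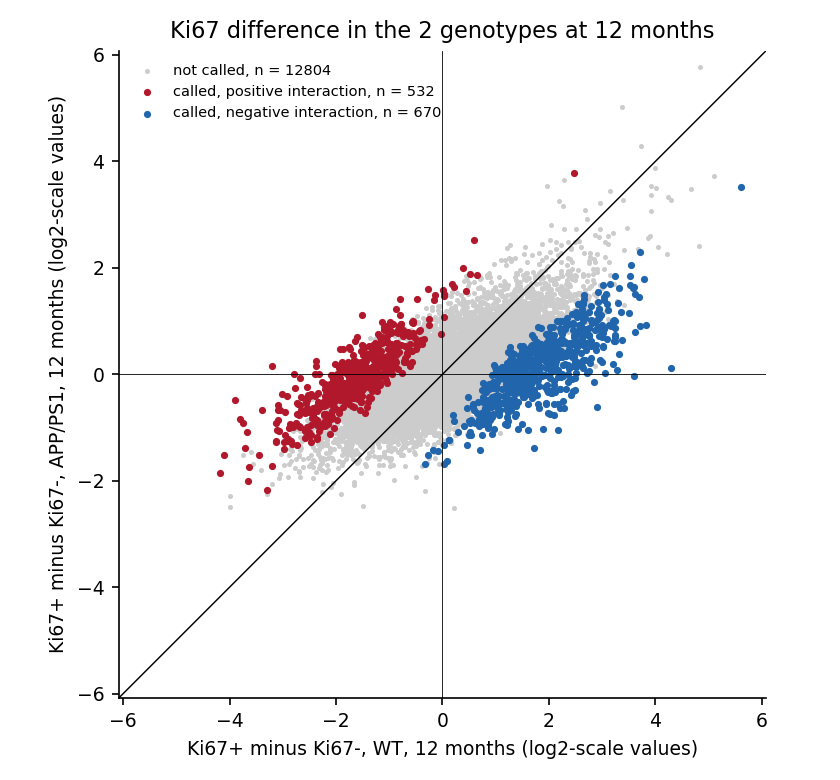
Each point is 1 of 14006 tested genes, with the Ki67+ minus Ki67- difference at 12 months in WT on the horizontal and in APP/PS1 on the vertical axis (log2-scale values); the diagonal marks equal differences and colours mark the 532 genes with a positive and 670 with a negative called interaction. Most coloured points lie far from 0 along the WT axis and near 0 along the APP/PS1 axis.

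Genes were then sorted by which of the 4 group means carried the difference: a group was taken to carry it if the other 3 means lay within a range of at most 0.5 of the interaction. A single group carried it in 762 of the 1202 genes (63.4%), against 30.3% of all tested genes. WT Ki67- carried it in 525 (43.7% of the called genes, 13.6% of all tested), low in 297 and high in 228. WT Ki67+ carried it in 165 (13.7% and 8.35%), high in 92 and low in 73. APP/PS1 Ki67- carried it in 58 (4.83% and 5.07%), high in 30 and low in 28, and APP/PS1 Ki67+ in 14 (1.16% and 3.35%), high in 8 and low in 6. In the remaining 440 (36.6%, against 69.7%) no single mean carried it. The carrying group did not overlap any library of the other 3 groups in 667 genes (55.5%, against 15.3% of all tested genes). With WT Ki67- counted as 1 library the numbers were 30, 3, 0 and 0, with 16 in no single group, so no gene carried by an APP/PS1 group kept its call. The sort uses the same means as the test and is a description. Genes named by lowest p for a carrying group were picked among those where it stood apart, so standing apart is no result for them. Genes of no single group count as overlapping in the shares above. Among genes carried by 1 group, 667 of 762 called and 2147 of 4247 tested genes stood apart. Of these 667, WT Ki67- carried 501, and its 3 libraries were nearly the same as each other.

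**Figure D2:**
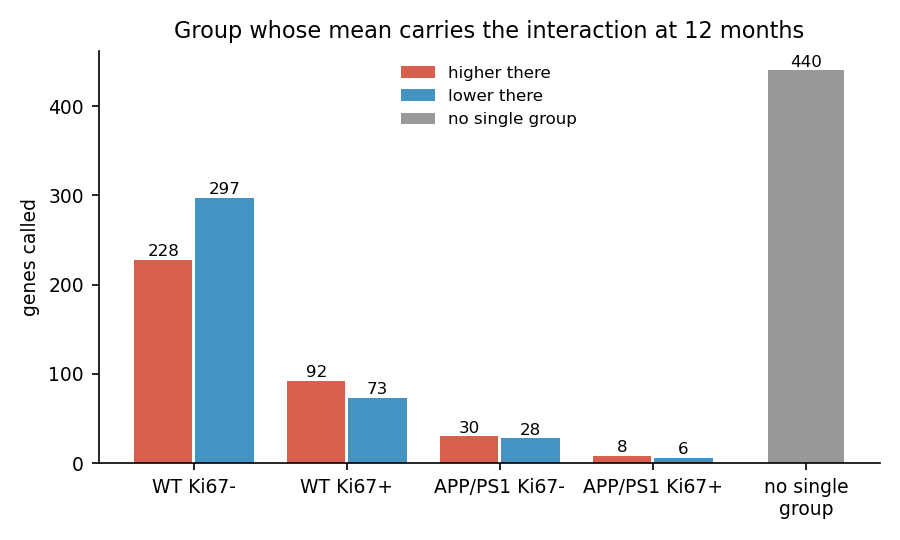
Number of called genes (vertical axis) by the group at 12 months whose mean carried the interaction (horizontal axis), split into genes higher or lower in that group than in the other 3; the last bar counts genes carried by no single group. WT Ki67- has the highest pair of bars, with 228 genes high and 297 low, and APP/PS1 Ki67+ the lowest, with 8 and 6.

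Of the genes low in WT Ki67-, those with the lowest p acted in different processes. Over the 297, the mean level was 6.97 to 6.98 in the 3 WT Ki67- libraries, against 8.68 to 8.71 in WT Ki67+, 8.43 to 8.55 in APP/PS1 Ki67- and 8.33 to 8.48 in APP/PS1 Ki67+. Fabp5 (chr3:10012548-10016607, GRCm38, plus strand), which binds fatty acids inside the cell, was 6.60, 6.54 and 6.39 in WT Ki67-. It was 10.94, 10.73, 10.72 and 10.85 in WT Ki67+, 10.02, 11.08, 11.36 and 11.05 in APP/PS1 Ki67- and 11.20, 10.95, 10.92 and 10.87 in APP/PS1 Ki67+. The other 3 groups overlapped each other and lay more than 3 log2 units above WT Ki67-, and the interaction was -4.19 ± 0.48 (limma adjusted p = 8.29e-06, and 0.000814 with WT Ki67- counted as 1 library). It was the largest interaction in size of all tested genes.

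Slc16a3 (chr11:120948480-120960868), a lactate and pyruvate exporter, showed the same shape. It was 5.14, 5.17 and 5.25 in WT Ki67-, 8.72, 8.52, 8.96 and 8.95 in WT Ki67+, 8.43, 8.24, 9.15 and 8.73 in APP/PS1 Ki67- and 8.78, 8.76, 9.01 and 7.88 in APP/PS1 Ki67+, with an interaction of -3.63 ± 0.40 (limma adjusted p = 6.86e-06). Lpl (chr8:68880491-68907448), the lipase that releases fatty acids from lipoproteins, also belongs to the plaque-associated state. Its values were 7.10, 6.99 and 6.93 in WT Ki67-, 10.30, 10.02, 10.03 and 10.78 in WT Ki67+, 11.62, 11.71, 12.02 and 11.76 in APP/PS1 Ki67- and 11.77, 11.91, 11.77 and 12.03 in APP/PS1 Ki67+. Here both APP/PS1 groups stood above WT Ki67+ without overlap, and the interaction was -3.19 ± 0.51 (limma adjusted p = 0.000757, and 0.0270 with WT Ki67- counted as 1 library).

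Dhcr7, the last enzyme of cholesterol synthesis, and Srebf2, a transcription factor that switches on cholesterol synthesis genes, were both low in WT Ki67-. Their promoters are shown because WT Ki67- was the lowest group in both genes, and a common control was not tested. Each is given from 250 bases before to 50 after a RefSeq start site (GRCm38.p6, both on the plus strand). For Dhcr7 this is 1 of 3 windows, chr7:143829964-143830263, and for Srebf2 chr15:82147019-82147318. The other 2 Dhcr7 windows hold no CCAAT. Below, CCAAT on either strand is in capitals (ATTGG is its reverse complement):
Dhcr7: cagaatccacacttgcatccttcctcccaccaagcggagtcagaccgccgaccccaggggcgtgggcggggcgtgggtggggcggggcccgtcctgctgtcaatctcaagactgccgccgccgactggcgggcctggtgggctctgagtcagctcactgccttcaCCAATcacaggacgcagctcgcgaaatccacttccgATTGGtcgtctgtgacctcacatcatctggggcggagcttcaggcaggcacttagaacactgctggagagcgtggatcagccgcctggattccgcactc
Srebf2: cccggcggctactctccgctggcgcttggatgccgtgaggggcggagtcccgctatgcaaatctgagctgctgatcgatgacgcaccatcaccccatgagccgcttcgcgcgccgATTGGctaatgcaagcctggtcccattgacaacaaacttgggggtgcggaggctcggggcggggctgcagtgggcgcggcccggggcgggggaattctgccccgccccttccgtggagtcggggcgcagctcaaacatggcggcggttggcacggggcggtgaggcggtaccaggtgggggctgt
The Dhcr7 window shown holds CCAAT at 2 places and the Srebf2 window at 1. A match of these letters is not a binding site, and CCAAT on either strand was as common elsewhere: 36.9% of the promoter windows of genes low in WT Ki67-, 36.8% of those high in WT Ki67-, 37.6% of those of all tested genes and 37.4% of all windows held it. The sterol element TCACNCCAC on either strand, which does not overlap CCAAT in its letters, was in 0.664%, 0.439%, 1.19% and 1.24% of these windows. Neither the Srebf2 window nor any of the 3 Dhcr7 windows held it. Windows were matched by symbol for 10932 of 14006 tested and 944 of 1202 called genes.

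Dhcr7 was 7.05, 7.04 and 6.98 in WT Ki67-, 9.19, 9.24, 9.61 and 8.75 in WT Ki67+, 9.72, 8.96, 9.07 and 8.83 in APP/PS1 Ki67- and 8.21, 7.63, 8.59 and 7.99 in APP/PS1 Ki67+. Ki67+ cells were higher than Ki67- cells in WT by 2.17 ± 0.28 and lower in APP/PS1 by a difference of -1.04 ± 0.26, without overlap of libraries in either genotype, and the interaction was -3.21 ± 0.39 (limma adjusted p = 1.8e-05). Srebf2 was 8.18 to 8.25 in WT Ki67-, 9.36 to 9.57 in WT Ki67+, 8.91 to 10.14 in APP/PS1 Ki67- and 8.95 to 9.25 in APP/PS1 Ki67+, with an interaction of -1.68 ± 0.36 (limma adjusted p = 0.00603). Its call was lost with WT Ki67- counted as 1 library, while that of Dhcr7 was kept.

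Further down the same class, Dxo (chr17:34837019-34839233), an enzyme that removes faulty RNA caps, was 5.38 to 5.49 in WT Ki67- and 7.24 to 8.61 in the other 12 libraries, with an interaction of -3.03 ± 0.39 (limma adjusted p = 4.18e-05). An exon of Dxo overlaps Skiv2l on the opposite strand, and the library kit does not mark strand, so reads of the pair cannot be told apart. Ndufa8 (chr2:36036326-36049406), a subunit of respiratory complex I, was 7.30 to 7.31 in WT Ki67- and 9.0 to 10.75 elsewhere, an interaction of -2.84 ± 0.38 (limma adjusted p = 6.24e-05). Apoe, the main lipid carrier of the brain and among the highest genes of the table, was 14.39, 14.35 and 14.26 in WT Ki67- against 16.52 to 17.02 in WT Ki67+, 16.99 to 17.98 in APP/PS1 Ki67- and 17.29 to 17.76 in APP/PS1 Ki67+. The WT Ki67- libraries lay below all others, and the interaction was -2.36 ± 0.47 (limma adjusted p = 0.0038, and 0.0686 with WT Ki67- counted as 1 library).

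The 228 genes high in WT Ki67- had a mean level of 8.98 in each of its 3 libraries, against 7.45 to 7.54 in WT Ki67+, 7.62 to 7.73 in APP/PS1 Ki67- and 7.72 to 7.88 in APP/PS1 Ki67+. Nipal3 (chr4:135445420-135495038), a member of a magnesium transporter family, was 10.13, 10.15 and 10.10 in WT Ki67-. It was 7.03, 6.68, 7.23 and 6.80 in WT Ki67+, 6.91, 7.88, 8.33 and 8.62 in APP/PS1 Ki67- and 8.15, 8.34, 7.91 and 7.94 in APP/PS1 Ki67+. WT Ki67- lay above every other library, and the interaction was 3.34 ± 0.54 (limma adjusted p = 0.000757); Stpg1 overlaps it on the opposite strand.

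Mapk9, which encodes the stress kinase JNK2, was 9.84, 9.84 and 9.82 in WT Ki67- and 7.01 to 8.69 in the other libraries (interaction 2.54 ± 0.44, limma adjusted p = 0.00141). Unc5cl was 8.38 to 8.41 against 5.70 to 6.77 elsewhere (2.06 ± 0.35, limma adjusted p = 0.00106), and Rspo1, a secreted enhancer of Wnt signalling, 7.98 to 8.0 against 6.10 to 7.40 (2.04 ± 0.33, limma adjusted p = 0.000757). All 4 of these genes kept their call with WT Ki67- counted as 1 library. Unc5cl reached the level of 7 only in WT Ki67-, the group where it is high, as did 46 of the 228 genes, and such a gene entered the test through the group it is said to be high in. Cd4, a T cell co-receptor that brain macrophages can also carry, was 8.08 to 8.17 in WT Ki67- and 6.39 to 6.95 elsewhere (1.35 ± 0.33, limma adjusted p = 0.0127), and also entered only through WT Ki67-. Dnaja1, a co-chaperone of the heat shock family, was 11.57 to 11.70 against 9.58 to 11.004 (1.50 ± 0.38, limma adjusted p = 0.0165), and Tnfaip3, which restrains NF-kB signalling, 11.29 to 11.40 against 10.17 to 11.05 (1.32 ± 0.39, limma adjusted p = 0.0321). These last 3 calls were lost with WT Ki67- counted as 1 library. Tnfaip3 also lost its call on leaving out any of the 3 WT Ki67- libraries or APP/PS1 Ki67+ replicate 2 (adjusted p up to 0.0628).

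**Figure D3:**
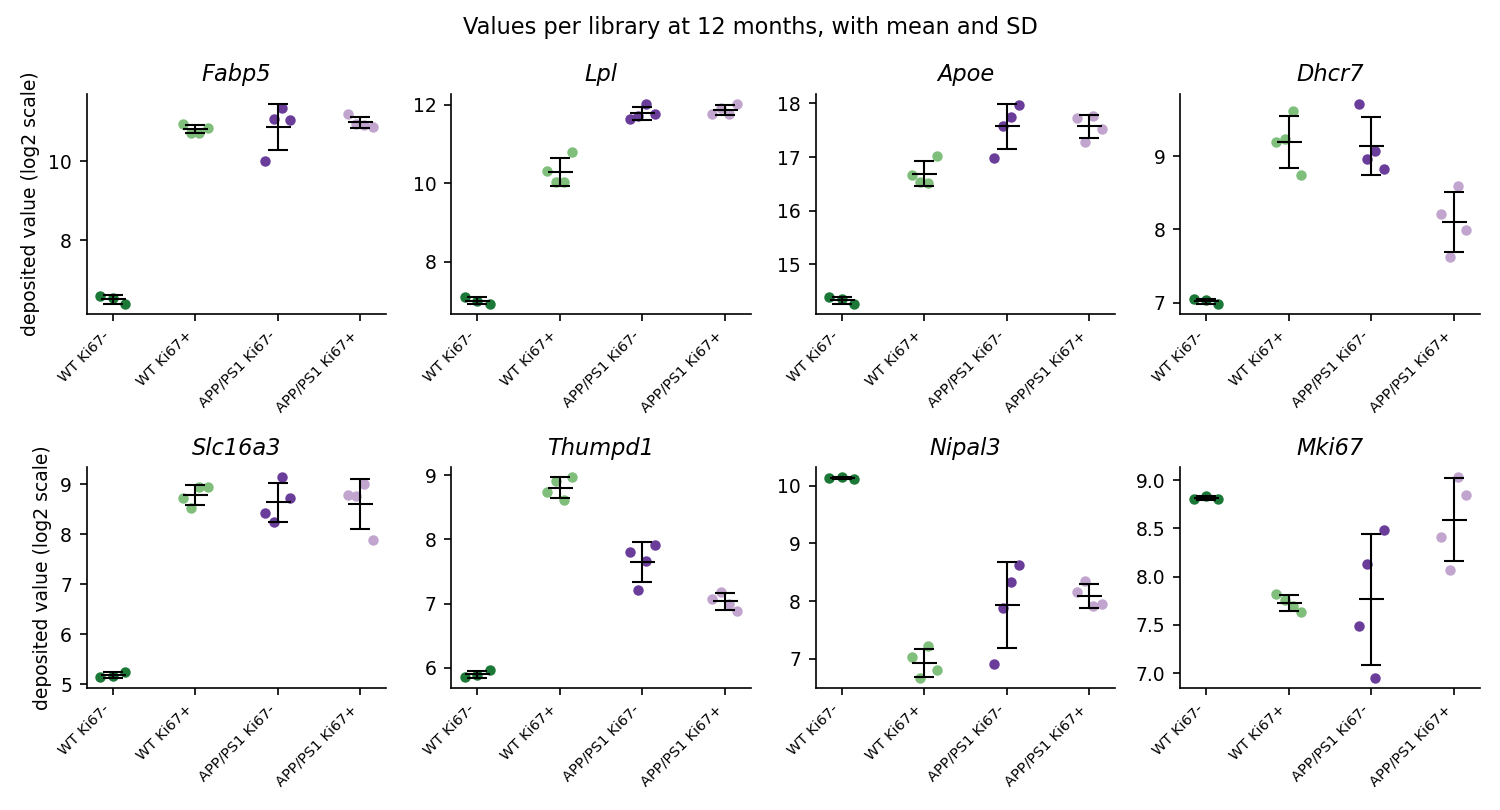
Deposited value (log2 scale, vertical axis) of 8 genes in each library of the 4 groups at 12 months (horizontal axis), with 1 point for each library and a bar for the mean and SD. In Fabp5, Lpl, Apoe, Dhcr7 and Slc16a3 the 3 WT Ki67- points lie lowest; in Nipal3 and Mki67 they are high, and in Thumpd1 the 4 WT Ki67+ points lie above all others.

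Of 92 genes high in WT Ki67+, 34 reached the level of 7 only in that group and so entered the test through it. Thumpd1 (chr7:119715093-119720798), which assists the acetylation of transfer RNA, was 8.73, 8.92, 8.61 and 8.97 in WT Ki67+. It was 5.85, 5.89 and 5.96 in WT Ki67-, 7.80, 7.21, 7.66 and 7.91 in APP/PS1 Ki67- and 7.07, 7.18, 7.0 and 6.88 in APP/PS1 Ki67+. The 4 groups did not overlap each other and their order by Ki67 state was opposite in the genotypes, with an interaction of -3.52 ± 0.39 (limma adjusted p = 6.86e-06). WT Ki67- also lay below every other library, so the place of Thumpd1 in this class was close. Under the stricter limit among the alternatives no single group carried it. The APP/PS1 Ki67 difference alone, -0.61 ± 0.26, did not pass (limma adjusted p = 0.0988).

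Cpxm2, a carboxypeptidase-like secreted protein that entered the test only through WT Ki67+, was 7.79 to 7.98 in WT Ki67+ and 5.88 to 6.67 in the other libraries (interaction -1.45 ± 0.25, limma adjusted p = 0.00144). Ccl9, a macrophage chemokine, was 10.31 to 10.57 in WT Ki67+, 7.98 to 8.01 in WT Ki67-, 8.18 to 9.10 in APP/PS1 Ki67- and 8.65 to 9.45 in APP/PS1 Ki67+ (-2.10 ± 0.41, limma adjusted p = 0.00342). H2-Aa, a chain of MHC class II that presents antigen to T cells, was 13.14, 13.28, 12.89 and 13.47 in WT Ki67+, 10.40, 10.39 and 10.48 in WT Ki67-, 10.75, 10.66, 10.61 and 11.42 in APP/PS1 Ki67- and 11.12, 10.26, 11.66 and 11.28 in APP/PS1 Ki67+. WT Ki67+ was thus apart from all other libraries, and the interaction was -2.55 ± 0.71 (limma adjusted p = 0.0246). Among these, Thumpd1 and Cpxm2 kept their calls with WT Ki67- counted as 1 library, and Ccl9 and H2-Aa did not.

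Among the 73 genes low in WT Ki67+, Utp14a (chrX:48256862-48282453), which acts in assembly of the small ribosomal subunit, was 7.12 to 7.59 there and 8.15 to 9.26 in the other 11 libraries (interaction 1.95 ± 0.36, limma adjusted p = 0.00232). Bin3 was 7.19 to 7.72 against 8.32 to 9.70 (1.93 ± 0.42, limma adjusted p = 0.00662), Triqk 5.47 to 5.98 against 6.64 to 8.05 (1.79 ± 0.38, limma adjusted p = 0.00508) and Gpr157 6.61 to 7.12 against 7.50 to 8.71 (1.74 ± 0.38, limma adjusted p = 0.00699). These 4 were named among the 51 of 73 genes that stood apart from all other libraries, and their calls were lost with WT Ki67- counted as 1 library. Utp14a and Bin3 share exonic positions with 9530027J09Rik and Ccar2 on the opposite strand.

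APP/PS1 Ki67- carried the interaction in 58 genes, about the share seen over all tested genes. Of those high there, Golph3l, a Golgi membrane protein, was 9.20, 8.52, 8.97 and 8.39 in APP/PS1 Ki67- and 6.62 to 7.95 in the other libraries (interaction -1.78 ± 0.44, limma adjusted p = 0.0128). Rpgrip1 was 8.24 to 8.80 against 6.91 to 8.13 (-2.05 ± 0.41, limma adjusted p = 0.00418), and Poglut1, which adds glucose to Notch, 8.53 to 9.11 against 7.55 to 8.45 (-1.38 ± 0.35, limma adjusted p = 0.0158). Of those low there, Ntm, a neuronal adhesion molecule, was 6.89, 6.88, 7.21 and 7.18 against 8.49 to 9.31 in the other libraries. In Ntm the Ki67 difference was 1.65 ± 0.20 in APP/PS1 (limma adjusted p = 1.89e-06) and 0.21 ± 0.22 in WT mice, with an interaction of 1.44 ± 0.30 (limma adjusted p = 0.00455). Dph2, an enzyme of diphthamide synthesis, was 6.24 to 7.37 against 7.52 to 8.65 (2.09 ± 0.49, limma adjusted p = 0.00977), and Srgap1 6.36 to 6.78 against 6.91 to 7.93 (1.51 ± 0.33, limma adjusted p = 0.0066). No gene of this group kept its call with WT Ki67- counted as 1 library.

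Of the 14 called genes carried by APP/PS1 Ki67+, the 8 high ones were Kbtbd6, Eda, Lrrc32, Sec14l4, 4930474N09Rik, Susd1, Ror1 and Ndst3, and the 6 low ones Hps3, Lypla1, Nop9, Fam109a, Hsd3b7 and Samd14. Lypla1, which removes palmitate from proteins, was 7.40, 6.83, 8.04 and 7.25 in APP/PS1 Ki67+ and 8.10 to 8.71 in the other libraries, an interaction of -1.35 ± 0.40 (limma adjusted p = 0.0348). Ror1, a Wnt receptor, was 7.10 to 7.22 against 6.31 to 6.91 (1.06 ± 0.31, limma adjusted p = 0.0342), and Ndst3, an enzyme of heparan sulphate synthesis, 7.07 to 7.22 against 6.30 to 6.84 (0.96 ± 0.29, limma adjusted p = 0.0354). Both entered the test only because they reached the level of 7 in APP/PS1 Ki67+, the group where they are high, as did 4 of the 8 high genes. All 3 calls were lost on leaving out any of the WT Ki67- libraries (adjusted p up to 0.0664 in Lypla1, 0.0648 in Ror1 and 0.0666 in Ndst3), and that of Lypla1 also without WT Ki67+ replicate 2 or APP/PS1 Ki67+ replicate 2.

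In 407 of the 440 genes carried by no single group the Ki67 difference was larger in WT, in 3 it was larger in APP/PS1, and in 30 it had opposite signs. Cxcl14, a chemokine, belonged to the first kind: it was 6.87, 6.87 and 6.85 in WT Ki67-, 10.21, 10.20, 10.19 and 10.29 in WT Ki67+, 8.25, 8.22, 8.14 and 7.40 in APP/PS1 Ki67- and 9.17, 9.06, 9.35 and 9.11 in APP/PS1 Ki67+. It rose with Ki67 in both genotypes, by 3.36 ± 0.21 in WT and 1.17 ± 0.20 in APP/PS1, and the interaction was -2.19 ± 0.29 (limma adjusted p = 6.24e-05). Fndc4 (-2.90 ± 0.46, limma adjusted p = 0.000716) had the same order. Kctd2 went the other way, with 10.57, 10.67 and 10.78 in WT Ki67-, 6.56 to 6.93 in WT Ki67+, 8.24 to 9.44 in APP/PS1 Ki67- and 7.65 to 9.44 in APP/PS1 Ki67+. Its interaction of 3.42 ± 0.56 was the highest positive one (limma adjusted p = 0.000802).

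Genes with opposite signs included Pld3, a lysosomal nuclease, which was 8.98, 8.96 and 8.93 in WT Ki67-, 10.92, 10.92, 10.65 and 11.25 in WT Ki67+, 12.10, 12.46, 12.57 and 12.45 in APP/PS1 Ki67- and 12.19, 11.84, 12.17 and 12.08 in APP/PS1 Ki67+. It rose with Ki67 by 1.98 ± 0.24 in WT, whereas the difference in APP/PS1 was -0.33 ± 0.22 (adjusted p = 0.306), and the interaction was -2.31 ± 0.32 (limma adjusted p = 0.000144). Baiap2l2 had the same shape at lower levels (-1.57 ± 0.28, limma adjusted p = 0.00172). In Acaca, the first enzyme of fatty acid synthesis, both differences passed, at 1.22 ± 0.29 in WT and -0.88 ± 0.27 in APP/PS1, with an interaction of -2.10 ± 0.40 (limma adjusted p = 0.00259). Cxcl14, Fndc4, Kctd2, Pld3 and Baiap2l2 kept their calls with WT Ki67- counted as 1 library and Acaca did not.

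The 3 genes with the larger Ki67 difference in APP/PS1 were Sparcl1, Col9a3 and Daam2. Sparcl1, an astrocyte matrix protein and a member of the astrocyte list, was 10.33, 10.31 and 10.23 in WT Ki67-, 12.80, 12.69, 12.77 and 12.74 in WT Ki67+, 8.03, 8.26, 8.55 and 7.95 in APP/PS1 Ki67- and 12.13, 11.66, 12.43 and 11.74 in APP/PS1 Ki67+. It was thus lowest in APP/PS1 Ki67-, and the interaction was 1.33 ± 0.38 (limma adjusted p = 0.0276), lost without WT Ki67- replicate 1 or 2 (up to 0.0546). Col9a3, a collagen chain, rose with Ki67 by 2.52 ± 0.29 in APP/PS1 against 0.60 ± 0.32 in WT (1.93 ± 0.43, limma adjusted p = 0.00798). Both calls were lost with WT Ki67- counted as 1 library.

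Of 22 gene lists with tested members, the plaque-associated list had the lowest median interaction, -0.80 over 34 genes against -0.03 over all tested genes, with 31 of 34 negative. Its mean level was 10.44 to 10.45 in the WT Ki67- libraries, 11.29 to 12.05 in WT Ki67+, 12.49 to 12.92 in APP/PS1 Ki67- and 12.85 to 12.98 in APP/PS1 Ki67+. Ki67+ cells were higher in 17 of its genes in WT (50% of them, against 27% of all tested genes) and in 2 in APP/PS1 mice (5.88% against 11.3%), and APP/PS1 was higher in 32 within Ki67- (9.36% of all tested genes) and in 26 within Ki67+ cells (4.69%). The first count was 15 and the third 23 with WT Ki67- counted as 1 library. The interaction itself was called in 6, all negative: Lpl and Apoe as above, Ank (-2.79 ± 0.54), Cst7 (-2.61 ± 0.76), Axl (-1.95 ± 0.47) and Itgax (-1.83 ± 0.56), against 4.78% of all tested genes called negative. Lpl alone was called with WT Ki67- counted as 1 library.

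Cst7, an inhibitor of lysosomal proteases, was 7.79, 7.75 and 7.77 in WT Ki67-, 10.93, 10.79, 9.58 and 12.76 in WT Ki67+, 13.01, 13.45, 13.94 and 13.75 in APP/PS1 Ki67- and 14.10, 14.30, 14.59 and 13.70 in APP/PS1 Ki67+. WT Ki67+ libraries lay between WT Ki67- and both APP/PS1 groups, and the call (limma adjusted p = 0.0307) was lost without WT Ki67+ replicate 4 or any of the WT Ki67- libraries (up to 0.0569). Axl, a receptor for dying cells, was 8.42 to 8.58 in WT Ki67-, 9.69 to 10.25 in WT Ki67+, 10.95 to 12.13 in APP/PS1 Ki67- and 10.87 to 11.77 in APP/PS1 Ki67+ (limma adjusted p = 0.0117). Trem2 and Tyrobp, the receptor and adaptor on which this state depends, were not called. Trem2 was 13.11 to 13.14, 12.64 to 13.44, 14.45 to 14.87 and 14.11 to 14.53 in the same order of groups, with an interaction of -0.26 ± 0.31 (limma adjusted p = 0.646). For Tyrobp it was -0.60 ± 0.36 (limma adjusted p = 0.314).

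The lipid and cholesterol list held 6 called genes of 31, all negative (19.4%, against 8.58% of all tested genes called and 4.78% called negative), with a median of -0.36: Fabp5, Lpl, Apoe, Srebf2, Dgat2 and Nr1h3. WT Ki67- carried the interaction in the first 5, and WT Ki67+ in Nr1h3, the liver X receptor that induces cholesterol export (-1.35, limma adjusted p = 0.0408). Fabp5 and Lpl were called with WT Ki67- counted as 1 library. The call of Dgat2 (-1.81 ± 0.54, limma adjusted p = 0.0367) was lost when any of 9 of the 15 libraries was left out (up to 0.0681), and its interaction was -2.70 in the first and -0.90 in the second of the 2 series of sheet numbers in the labels. The members not called included the cholesterol synthesis gene Hmgcs1 (0.07 ± 0.40).

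In the interferon list 4 of 30 genes were called (13.3%, against 8.58% of all tested genes), all negative: Usp18 (-2.24 ± 0.55), Mx1 (-2.22 ± 0.54), Oasl2 (-1.95 ± 0.52) and Herc6 (-1.44 ± 0.32), with a list median of -0.14. Usp18, a brake on interferon signalling, was 5.73 to 5.81 in WT Ki67-, 7.43 to 8.30 in WT Ki67+, 7.68 to 8.59 in APP/PS1 Ki67- and 7.61 to 8.31 in APP/PS1 Ki67+. Of 40 lysosomal genes Tpp1 (-1.19 ± 0.31) and Lamp1 (-0.92 ± 0.29) were called, at a median of -0.29, and of 15 MHC genes H2-Aa, at -0.56. Of 80 nuclear-encoded genes of oxidative phosphorylation 5 were called (6.25%, below the 8.58% of all tested genes), all negative (Ndufa8, Ndufb9, Ndufc2, Cox6a2 and Atp5g2), at a median of -0.15, and none of 78 cytosolic ribosomal protein genes, at 0.14. With WT Ki67- counted as 1 library Ndufa8 alone remained called among these lists. The call of Lamp1 was lost when any of 9 of the 15 libraries was left out and with library medians aligned (0.0554).

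**Figure D4:**
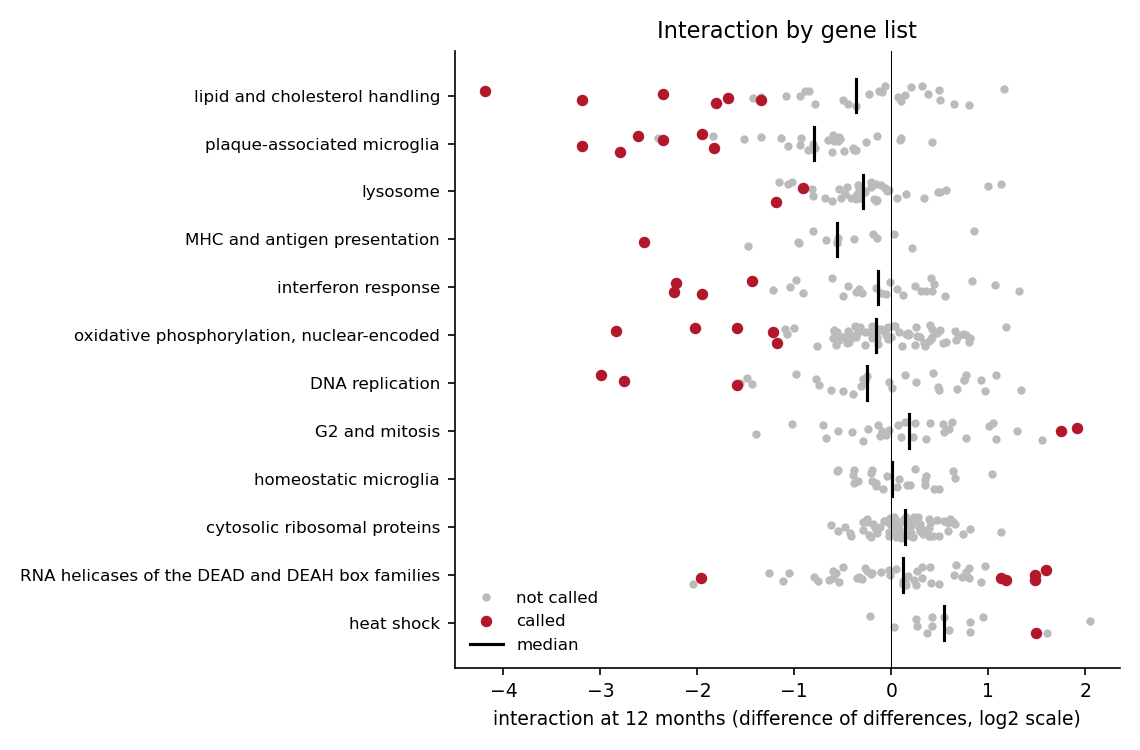
Interaction at 12 months (difference of differences, log2 scale, horizontal axis) of each tested gene in 12 gene lists (vertical axis), with called genes in red, others in grey and a black line at each list's median. The plaque-associated list has its median at -0.80 and 6 called genes, all to the left of 0, while the homeostatic list has its median at 0.01 and no called gene.

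The homeostatic microglia list held no called gene among 26 (median 0.01), where 8.58% of all tested genes were called, in the limma fit as in that with WT Ki67- counted as 1 library. Cx3cr1, the fractalkine receptor, had an interaction of -0.21 ± 0.29, P2ry12, a purine receptor of resting microglia, -0.20 ± 0.33, and Tmem119 -0.16 ± 0.33. The genotype difference went both ways in this list. APP/PS1 was higher in 2 and lower in 3 of the 26 genes within Ki67- cells (17.6% of all tested genes called). Within Ki67+ cells it was higher in 2 and lower in 2 (10.4%), and Tmem119 was among the lower ones in both. Tmem119 was 13.85, 13.88 and 13.87 in WT Ki67-, 13.60 to 13.84 in WT Ki67+, 12.59 to 13.24 in APP/PS1 Ki67- and 12.21 to 12.97 in APP/PS1 Ki67+. It was lower in APP/PS1 than in WT mice in both Ki67 states, by differences of -0.95 ± 0.24 in Ki67- (limma adjusted p = 0.00673) and -1.11 ± 0.22 in Ki67+ cells (limma adjusted p = 0.00272). The first of these was not called with WT Ki67- counted as 1 library (0.163).

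Cell cycle genes did not move as 1 group. Of 31 DNA replication genes 3 were called (9.68%, close to the 8.58% of all tested genes), all negative and all low in WT Ki67-: Fen1 (-2.99 ± 0.67), Gins2 (-2.76 ± 0.52) and Mcm3 (-1.59 ± 0.44), with a list median of -0.25. Gins2, a part of the replicative helicase, was 5.79 to 5.84 in WT Ki67-, 8.53 to 9.01 in WT Ki67+, 7.52 to 9.31 in APP/PS1 Ki67- and 8.54 to 8.86 in APP/PS1 Ki67+. Of 32 genes of G2 and mitosis, Mki67 and the spindle motor Kif11 (1.75 ± 0.49, limma adjusted p = 0.0252) were called, both positive and both high in the libraries labelled WT Ki67-, with a list median of 0.18 and 6.25% of its genes called. Yet 20 of these 32 were higher in WT Ki67+ than in WT Ki67- libraries (62.5%, against 27% of all tested genes; 12 with WT Ki67- counted as 1 library), so Mki67 and Kif11 went against most of their list. Mcm3 and Kif11 lost their calls without WT Ki67- replicate 1 (0.0505 and 0.0516), and none of the 5 was called with WT Ki67- counted as 1 library. In that setting the WT Ki67 differences of Mki67 and Kif11 did not pass either. Gins2 overlaps Gse1, and Fen1 Tmem258, on the opposite strand.

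RNA helicases of the DEAD and DEAH box families held 6 called genes of 51 (11.8%, against 8.58% of all tested genes), 5 positive (Dhx36, Ddx10, Ddx17, Ddx19b and Ddx49) and 1 negative (Ddx28), at a median of 0.13. Ddx10, which acts in ribosome assembly, was 8.82 to 8.83 in WT Ki67-, 6.64 to 6.82 in WT Ki67+, 7.43 to 8.50 in APP/PS1 Ki67- and 7.0 to 7.83 in APP/PS1 Ki67+ (1.60 ± 0.41, limma adjusted p = 0.0165). Ddx3x, a helicase used in translation, was 11.03 to 11.15, 10.60 to 10.76, 10.16 to 11.22 and 11.21 to 11.47 in the same order. Its interaction of 0.93 ± 0.34 did not pass (limma adjusted p = 0.0876), and passed in 5 of 24 alternative fits. Among these were library medians aligned (limma adjusted p = 0.0496) and 12-month libraries alone (0.0207). The latter fit counts nothing as spent on the removed surrogate variables. None of the list was called with WT Ki67- counted as 1 library, and Ddx17, Ddx19b and Ddx49 lost their calls on leaving out any of the 3 WT Ki67- libraries, among others (adjusted p up to 0.0692, 0.0707 and 0.0764).

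Over all tested genes the interaction was called in 8.58%. Among markers of other cells it was called in 0 of 19 neuronal, 0 of 16 oligodendrocyte, 1 of 18 astrocyte (Sparcl1), 1 of 15 endothelial (Pecam1, 1.37 ± 0.36) and 1 of 16 blood and border immune genes (Cd4). Cytokine and inflammasome genes gave 3 calls of 28 (Cxcl14, Ccl9 and Tnfaip3), complement and phagocytic receptors 1 of 26 (Axl), heat shock 1 of 15 (Dnaja1, list median 0.55), immediate early genes 0 of 24 and glucocorticoid response genes 0 of 10. In the heat shock list 1 of 15 interactions was negative, against 7262 of 14006 over all tested genes. The genotype itself was not marked by App, which was 11.51 to 11.62 in WT Ki67-, 9.19 to 9.88 in WT Ki67+, 10.01 to 10.99 in APP/PS1 Ki67- and 9.92 to 10.32 in APP/PS1 Ki67+ (interaction 1.74 ± 0.41, limma adjusted p = 0.0111). Prnp, whose promoter drives the transgenes, was 8.13 to 8.28, 11.81 to 11.98, 9.48 to 9.81 and 11.81 to 12.11 in the same order (-1.41 ± 0.45, limma adjusted p = 0.0464), a call lost when any of 14 of the 15 libraries was left out. The calls of Pecam1, App and Prnp were lost with WT Ki67- counted as 1 library. How transgene reads were assigned was not tested.

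The same interaction was computed at 4 and 6 months in libraries that the 12-month contrast did not use, with 18 and 9 libraries. At 4 months limma called no gene (788 at an unadjusted p under 0.05) and at 6 months 402 (2.87%), 55 of them among the 1202. Of the 1202 genes, 54.5% had the same sign at 4 months and 70.0% at 6 months, against 52.9% and 58.5% of all tested genes. The test of the difference between ages called 103 genes between 12 and 4 months (0.735%), 99 of them among the 1202, and 105 between 12 and 6 months (0.750%), 40 of them among the 1202. The count against 4 months was 33 without WT Ki67- replicate 3 and 199 without APP/PS1 Ki67- replicate 1, and moved by over 1.5 times when any of 9 libraries was left out (each of WT Ki67- and APP/PS1 Ki67-, WT Ki67+ replicate 1 and APP/PS1 Ki67+ replicate 3). It was 1333 with nominal degrees of freedom. With WT Ki67- counted as 1 library, 5 genes were called against 4 months and 25 against 6 months, 5 and 14 of them among the 1202, and 408 for the interaction at 6 months. Hence for most called genes a difference from the younger ages was not shown.

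In single genes the difference between ages was called. In Fabp5 the interaction was -0.21 ± 0.44 at 4 and -0.72 ± 0.62 at 6 months, and it differed at 12 months from both (by -3.98 ± 0.65, limma adjusted p = 0.00455, and by -3.47 ± 0.79, limma adjusted p = 0.0325). Slc16a3 differed by -4.29 ± 0.54 and -3.44 ± 0.66 (limma adjusted p = 0.000103 and 0.0123) and Thumpd1 by -4.25 ± 0.52 and -2.82 ± 0.63 (limma adjusted p = 0.000103 and 0.0316). Lpl differed from 4 months (-4.17 ± 0.69, limma adjusted p = 0.00517) and did not pass against 6 months (-2.42 ± 0.84, limma adjusted p = 0.162). Apoe passed against neither (limma adjusted p = 0.051 and 0.83), with -1.87 ± 0.61 at 6 months. With WT Ki67- counted as 1 library Fabp5, Slc16a3, Thumpd1 and Lpl differed from 4 months (limma adjusted p = 0.0411, 0.0015, 0.0015 and 0.0455), and of these 4 only Slc16a3 from 6 months (0.0476; Fabp5 0.102, Thumpd1 0.101 and Lpl 0.315).

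The levels of the genes carried by WT Ki67- at the younger ages can only be described. Over the 297 genes low in WT Ki67- at 12 months, this group's mean was 8.09 at 4, 8.05 at 6 and 6.97 at 12 months, and that of APP/PS1 Ki67- 8.11, 8.20 and 8.50. Over the 228 high ones, WT Ki67- was at 8.06, 7.98 and 8.98, and APP/PS1 Ki67- at 8.02, 7.93 and 7.69. Because the genes were chosen for a WT Ki67- mean far from the others at 12 months, that choice alone favours a narrower gap at any other age, and these levels cannot show a change with age. Over the 27 younger libraries the median level was 7.90 for the called and 8.02 for all tested genes, and 3.41% against 3.27% of genes lay on the X chromosome.

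**Figure D5:**
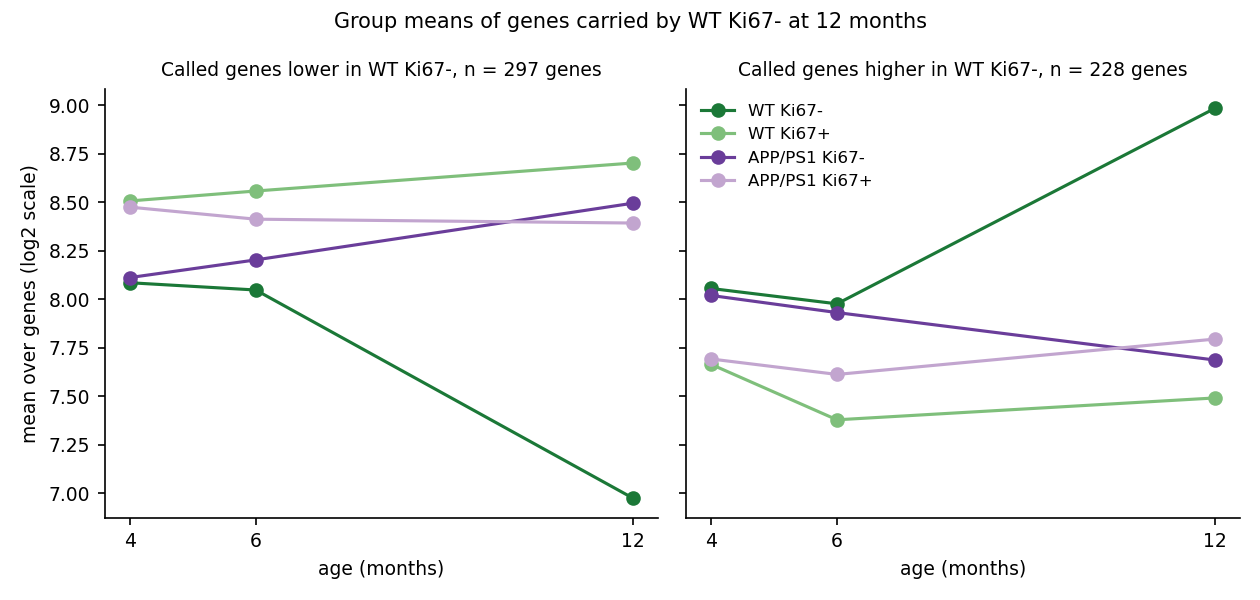
Mean over genes (log2 scale, vertical axis) of each genotype and Ki67 group at 4, 6 and 12 months (horizontal axis) for the 297 called genes low and the 228 high in WT Ki67- at 12 months. At 12 months WT Ki67- lies at 6.97 and 8.98, apart from the other groups, as the choice of these genes fixes; the same choice favours narrower gaps at 4 and 6 months.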

How the data were processed

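RNA of up to 400 fixed, sorted microglia per library was converted to Nextera XT libraries, which do not mark strand, and sequenced on a NextSeq500. Per the labels and the study's methods, the authors ran bcl2fastq 2.20, aligned read 1 to GRCm38 transcripts with kallisto 0.43.1, used DESeq2 for normalisation and took out 10 surrogate variables. Each deposited number is a score on a log2-like scale (3.07 to 18.35, median 7.40) for 19151 genes in 42 libraries, so the depth of each library is unknown. The study's own test was a count model. The values are not counts, so limma 3.58.1 (R 4.3.3) was fitted to means of 12 groups over all 42 libraries, with residual degrees of freedom set to 20, the rank left after the removed variables (nominally 30), and Benjamini-Hochberg adjustment over 14006 genes (FDR 0.05). Errors are SE. Genes whose spread the surrogate variables reduced have errors that may be too small. The fit was also run on simulated data with the same spread per gene in every group. That run cannot gauge errors here, where the spread of WT Ki67- was far smaller than that of the other groups at 12 months. Groups came from the labels, and replicate numbers follow accession order. No column was left out, and the 2 series of sheet numbers (12 to 19 and 25 to 31) were checked as batches.

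The named genes were, among called genes, the 4 with the lowest p in each carrying class whose carrying group stood apart, 3 in each mixed class, called members of gene lists (up to 5 for each list and direction) and fixed checks; Dgat2, Nr1h3, Itgax, Hmgcs1 and the full list of APP/PS1 Ki67+ genes were added after their values were seen. Members, lists and tests were chosen with earlier results of these data known. The mitochondrially encoded list had no gene in the table. Positions are from GENCODE M21 (GRCm38; 18835 symbols matched) and promoters from RefSeq. Python 3.11.15, numpy 2.4.6 and matplotlib 3.10.9 were used. Alternatives covered the filter, the libraries in the fit, degrees of freedom, weights, scaling, thresholds, the limit for a carrying group and each library left out.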

Additional observations from a re-analysis of the deposited data

Results flagged for a closer look

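The Ki67 difference at 12 months differed between genotypes in 1202 genes by the interaction term of limma, and this interaction differed from that at 4 months in 103 and from that at 6 months in 105 genes. Within each of the 2 series of sheet numbers, 8 libraries and 7 libraries, all 1202 called genes had the sign of the pooled value, which the same libraries had set.

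Of 246 groups of 4 libraries among 82 named genes, 7 held a library far from the other 3 by Dixon's test, which by chance marks about 1 in 20 groups. Cxcl14 was 7.40 in APP/PS1 Ki67- replicate 4 against 8.14 to 8.25, and H2-Aa was 11.42 in the same library against 10.61 to 10.75. Tyrobp was 14.31 in APP/PS1 Ki67- replicate 1 against 14.59 to 14.63. Gpr157 was 8.71 in APP/PS1 Ki67+ replicate 4 against 8.08 to 8.17, and Cd4 6.64 in APP/PS1 Ki67+ replicate 2 against 6.51 to 6.53. Srebf2 was 9.57 in WT Ki67+ replicate 2 against 9.36 in the others, and Ddx49 7.15 in WT Ki67+ replicate 4 against 6.64 to 6.67.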

How the results depend on the processing

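No paired analysis was possible because replicate numbers follow accession order and the labels pair no libraries. With the 3 WT Ki67- libraries counted as 1 (chosen after seeing the data), 16 genes were positive, 33 negative and 49 larger in WT, carried by WT Ki67- in 30, WT Ki67+ in 3, APP/PS1 Ki67- in 0, APP/PS1 Ki67+ in 0 and no single group in 16, with 1 plaque-associated gene; the Ki67 difference in WT was called in 3292, the genotype difference in Ki67- cells in 277 and the change from 4 to 12 months in 5, and 58 of the 75 named calls were lost. The values give no depth, so none of these counts can be set against counting error, and the cause of the changes below was not tested unless stated.

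Fitting the 12-month libraries alone called 1830 positive and 2092 negative genes, with 3389 larger in WT and 17 plaque-associated genes. The called genes were carried by 1177 (WT Ki67-), 605 (WT Ki67+), 269 (APP/PS1 Ki67-), 115 (APP/PS1 Ki67+) and 1756 (no single group). Adding the sheet series as a term to this fit gave 1651, 1898 and 3099 larger in WT. The 12-month fit had its nominal 11 residual degrees of freedom, with or without the series term nothing was counted as spent on the removed surrogate variables, and errors may be too small. Nominal degrees of freedom, which make errors smaller by construction, gave 1425, 1688 and 2741, and 4672 genes for the Ki67 difference in APP/PS1, 3505 and 4170 for the genotype difference in Ki67+ and Ki67- cells, 15 and 1552 for the interaction at 4 and 6 months and 1333 for its change from 4 to 12 months. A weight for each group gave 1221, 1479 and 2393, and FDR 0.01 gave 117, 161 and 267. A stricter limit on the other 3 means left 292, 72, 13 and 2 genes carried by single groups in the above order and 823 by none; without a limit WT Ki67+ carried 347 and the unsorted class was 0.

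Leaving out each library gave 312 to 599 positive, 395 to 709 negative and 674 to 1207 genes larger in WT. The carrying counts ranged over 359 to 579, 75 to 262, 24 to 93 and 4 to 35 in the above order and 243 to 469 for none, with 4 to 7 plaque-associated genes. The Ki67 difference ranged over 5601 to 6994 in WT and 2015 to 2765 in APP/PS1, and the genotype difference over 854 to 1801 in Ki67+ and 1577 to 2614 in Ki67- cells. The interaction called 0 at 4 months and 403 to 517 at 6 months, and its change from 4 to 12 months 33 to 199. The lowest interaction counts came from leaving out a WT Ki67- library, which lost 17 to 20 of the 75 named calls against 2 to 9 for others, and 680 genes (56.6%) were called in every one of these fits. P2ry12, never called, had an interaction of -0.31 to 0.0077 over these fits, above 0 without APP/PS1 Ki67- replicate 4.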
